A study of Mus musculus with 17 samples.

Results

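The interferon-stimulated antiviral genes described here are 40 mouse genes whose products sense, mark or block viruses and whose transcription interferons raise. They were chosen by name: a probe belonged to the set if the gene name in the scanner files was one of the 40, which gave 53 probes. All 40 genes had a probe that was well above background on at least 2 of the 17 arrays, and they are 40 of the 25977 genes that met this filter. The arrays held RNA from 5 groups of cells, all from offspring, 6 to 10 weeks old, of Foxl1-Cre mice crossed with a Rosa26R YFP reporter (strain Foxl1-CRE; RosaYFP). Foxl1-Cre marks adult hepatic progenitor cells. The groups were progenitor cells differentiated in vitro towards hepatocytes (Diff_Hepatocyte, here the hepatocyte condition, n = 4) or towards cholangiocytes, the epithelial cells of bile ducts (Diff_Cholanglocyte, the cholangiocyte condition, n = 3), undifferentiated progenitor cells (Undiff, n = 4), primary hepatocytes (n = 4) and primary cholangiocytes (n = 2, replicates 3 and 4). The study set cells differentiated in vitro against primary cells. The labels used here do not give culture media, the number of animals or clones, or pooling, so a p-value measures only the spread between these arrays, which may be technical.

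Interferons are secreted proteins that bind receptors on the cell surface. The receptors activate JAK kinases, which phosphorylate transcription factors of the STAT family. A complex that holds STAT2 and IRF9 binds the interferon-stimulated response element (ISRE), and signalling by interferon gamma acts through another element, the gamma-activated site (GAS). The genes they switch on include enzymes that make or act on a second messenger for RNA decay, proteins that bind foreign RNA, GTPases that act on viruses or on the membranes around microbes, and further copies of the same transcription factors. Liver cells respond to type I, type II and, in some cell types, type III interferons.

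The ISRE letters stood in the promoters of many of these genes. RefSeq windows (GRCm38.p6, 250 bases before to 50 bases after the gene start) were at hand for 30 of the 40 genes, and the letters GAAA, any 2 bases, GAAA, searched on both strands, occurred in 17 of those 30 (56.7%), against 3.99% of all 27025 genes with a window (3.44% of 32851 windows, since a gene can have several). TTCNNNGAA, a palindromic spelling of the GAS searched in the same way, occurred in 8 of 30 (26.7%), against 9.55% of all genes (8.3% of windows). The stretches below are printed 5′ to 3′ on the gene's strand, with ISRE matches in capitals (overlapping matches run together). The first 6 belong to genes with large differences between the hepatocyte condition and undifferentiated cells, at chr3:142620574-142620643 (plus strand) for Gbp2, chr3:142559969-142560043 (plus) for Gbp3, chr12:26456533-26456602 (minus) for Rsad2, chr19:34640755-34640843 (plus) for Ifit1, chr4:156200845-156200926 (minus) for Isg15 and chr5:120907526-120907575 (minus) for Oas1a.
Gbp2: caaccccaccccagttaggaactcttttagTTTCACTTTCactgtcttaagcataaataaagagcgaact
Gbp3: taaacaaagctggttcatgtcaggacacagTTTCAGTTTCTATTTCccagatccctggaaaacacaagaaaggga
Rsad2: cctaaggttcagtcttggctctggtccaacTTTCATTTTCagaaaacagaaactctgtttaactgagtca
Ifit1: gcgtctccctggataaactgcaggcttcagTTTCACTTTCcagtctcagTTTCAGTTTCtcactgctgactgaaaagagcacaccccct
Isg15: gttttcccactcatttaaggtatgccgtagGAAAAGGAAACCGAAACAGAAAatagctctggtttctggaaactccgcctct
Oas1a: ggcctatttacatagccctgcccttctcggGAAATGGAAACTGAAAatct

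The next 3 hold the same letters but belong to genes whose level did not pass the test between those groups, at chr5:120887614-120887661 (minus) for Oas1g, chr8:71537557-71537632 (minus) for Bst2 and chr11:48871421-48871480 (minus) for Irgm1.
Oas1g: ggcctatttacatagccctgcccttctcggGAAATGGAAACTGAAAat
Bst2: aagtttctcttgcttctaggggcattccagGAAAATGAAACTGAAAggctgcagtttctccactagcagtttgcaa
Irgm1: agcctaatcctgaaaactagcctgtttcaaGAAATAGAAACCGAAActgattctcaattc

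Each array's values are log2 of the processed Cy3 signal minus the array's own 75th percentile, so 0 is the level of a fairly bright probe and each unit is a doubling. A "difference" below is a difference of mean log2 values, with its standard error (SE) and its adjusted p from limma across all 25977 genes, and a gene passed at an adjusted p under 0.05. The 75th percentile of signal was 543.7 to 983.1 on the 4 primary hepatocyte arrays and 1741 to 2848 on all others. Comparisons with primary hepatocytes therefore set arrays of lower signal against brighter ones. Between 23905 and 29257 probes were well above background, and the mean correlation of an array with its own group was 0.947 to 0.98. The labels were checked against markers. The mean of 13 hepatocyte markers was 7.25 to 7.84 in primary hepatocytes, but in the hepatocyte condition it was 3.67, -1.26, 3.20 and -1.72. Alb, which encodes albumin, was at 7.62, -4.76, 7.58 and -3.65 in the hepatocyte condition (replicates 1 to 4), and at 6.00, 1.26, -4.44 and -8.74 in undifferentiated cells, so replicates 2 and 4 of the hepatocyte condition carried little of a hepatocyte's main transcript. The summed level of the 13 markers, in units of the array's 75th percentile, was 906, 406, 851 and 322 on the same 4 arrays. It was 29.6 to 172 in undifferentiated cells and 4290 to 6070 in primary hepatocytes. Such a sum is set mostly by the brightest genes. In the cholangiocyte condition 0 of 12 biliary markers passed against undifferentiated cells in limma (3 at an unadjusted p under 0.05). Against primary cholangiocytes 5 of the 12 were lower and 2 higher in limma, where 7.64% of all genes were called lower and 11.9% higher. Epcam, one with a large difference, was at -7.27 to -6.24 in the cholangiocyte condition, against 2.22 and 3.05 in primary cholangiocytes. On each cholangiocyte-condition array 10 to 11 of the 12 were well above background. The group names below are therefore the labels' names for culture conditions, and the number of the 40 genes that passed is also given without replicates 2 and 4 of the hepatocyte condition.

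In the mean log2 level over the set, the antiviral genes were highest in the hepatocyte condition, lower in primary cells, and lowest in the cholangiocyte condition and undifferentiated cells. Primary cells were not tested against undifferentiated cells. The 10 genes named Oas or Ifit averaged -3.04 to -2.46 in primary hepatocytes, within their range of -3.59 to -2.25 in undifferentiated cells. Their summed level was 41.2 to 47.4 in primary hepatocytes, 11.8 to 14.3 in undifferentiated cells and 24.6 to 33.2 in the hepatocyte condition. Summed over the 40 genes, the level was 178 to 216 in primary hepatocytes and 122 to 192 in the hepatocyte condition. The order of primary hepatocytes and the hepatocyte condition thus depended on the measure. The mean over the 40 genes was 0.81, 0.29, 1.02 and 0.81 on the hepatocyte-condition arrays, -2.42, -2.18 and -2.07 on the cholangiocyte-condition arrays and -1.89, -1.69, -1.82 and -2.42 on the undifferentiated arrays. It was -0.05, -0.11, -0.33 and -0.50 in primary hepatocytes and -0.13 and -0.88 in primary cholangiocytes. No array of the hepatocyte condition overlapped with any array of another group in this mean. By group mean, 21 genes were highest in the hepatocyte condition, 13 in primary hepatocytes, 5 in primary cholangiocytes, 1 in the cholangiocyte condition and 0 in undifferentiated cells. The lowest level was in the cholangiocyte condition for 20 genes, in undifferentiated cells for 10, in each of the primary groups for 5, and in the hepatocyte condition for 0. These counts were not made over all genes, so they do not show what is particular to the set. In these bulk samples, fewer cells expressing a gene and less RNA per cell cannot be told apart.

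**Figure D1:**
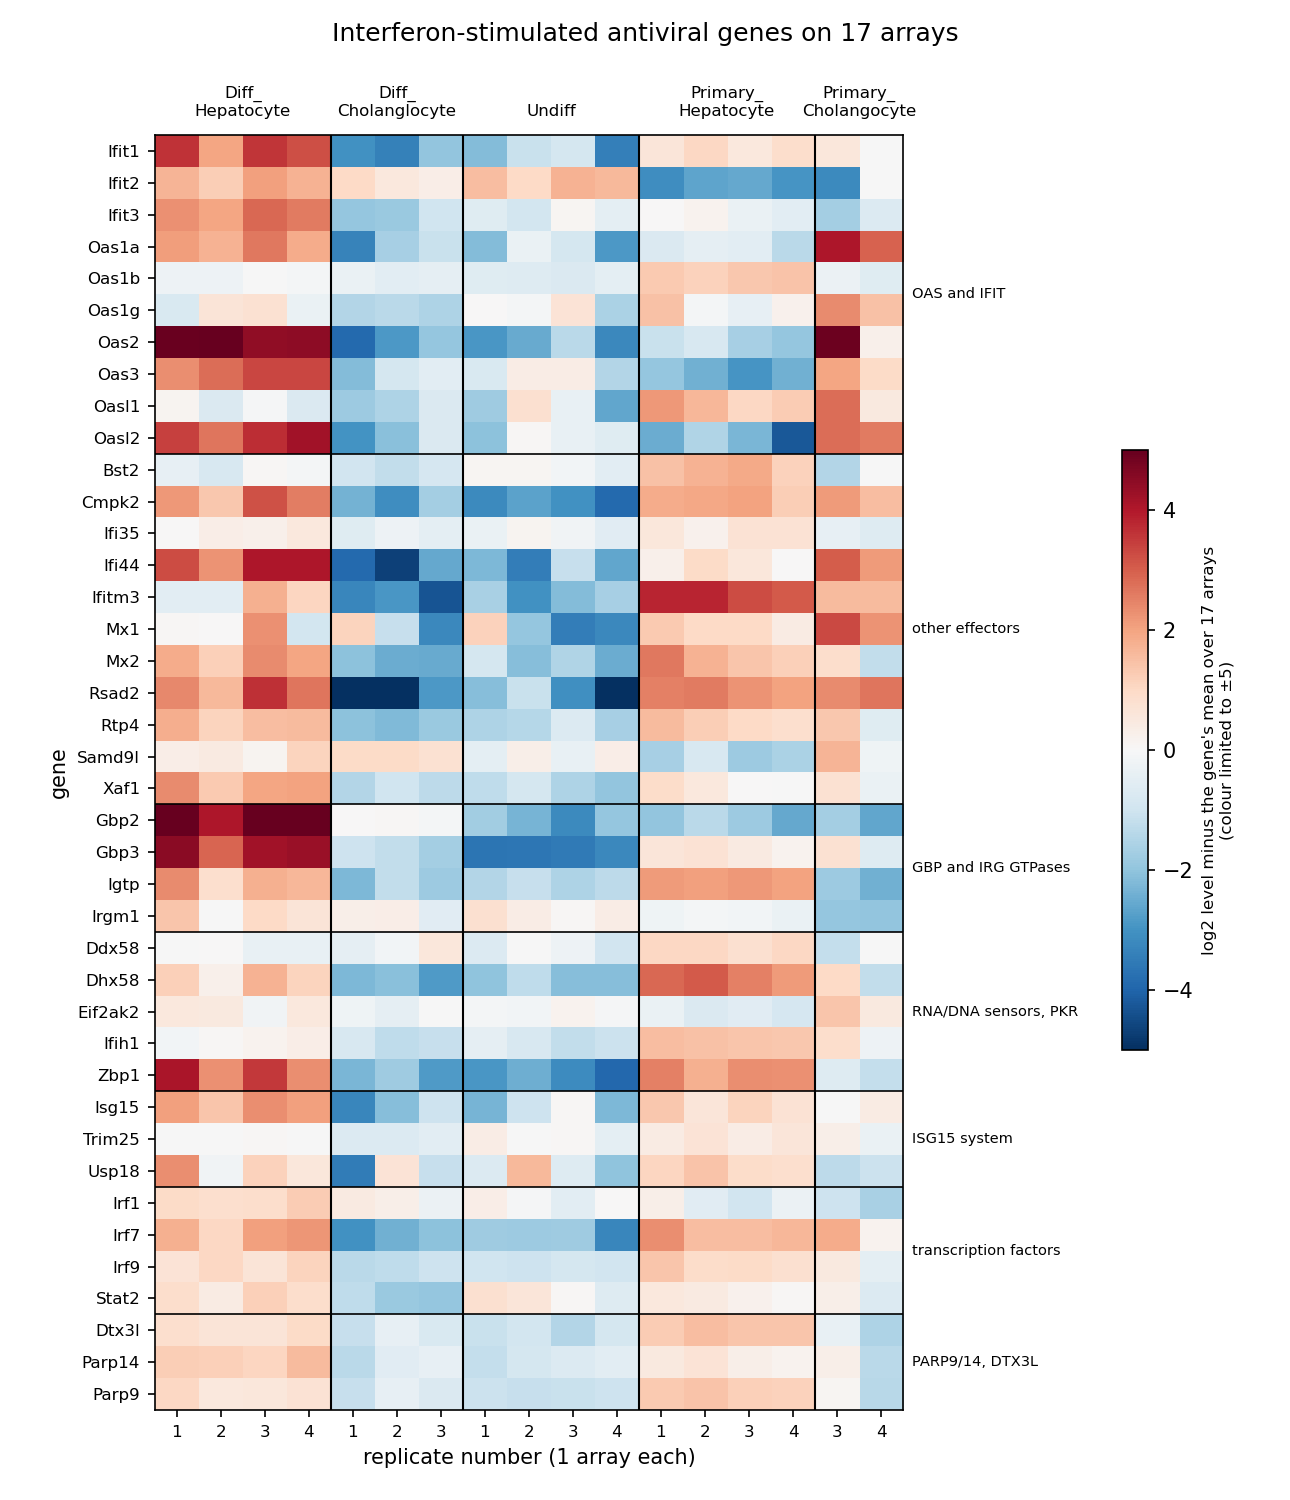
Level of each of the 40 antiviral genes (rows, ordered by role) on each of the 17 arrays (columns, by group), as log2 relative to the gene's mean over the arrays; the colour scale ends at 5 in either direction. The 4 hepatocyte-condition columns are mostly above the mean, the cholangiocyte-condition and undifferentiated columns mostly below it, and primary cells are mixed.

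Most of the set was higher in the hepatocyte condition than in undifferentiated cells. Of 40 genes, 27 were higher and 0 lower past the test in limma (29 and 0 at an unadjusted p under 0.05), where 7.62% of all genes were called higher and 7.70% lower. The median difference was 2.39, with a range of -0.20 to 7.60, against 0.07 over all genes. Without replicates 2 and 4 of the hepatocyte condition, 24 were higher and 0 lower. In 27 genes the ranges of the groups did not overlap, all higher in the hepatocyte condition; over all genes 9.57% were higher and 11.4% lower with no overlap. An alternative background correction, normexp, adds 50 to each corrected signal, so that low values lie closer together. Under it 5 of the 27 differences were smaller by over 1.5 times on the log2 scale: Cmpk2 (1.96), Rsad2 (2.69), Ifi44 (3.67), Oas3 (1.85) and Dhx58 (1.61), each still past the test in limma.

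The oligoadenylate synthetases, which make the messenger that activates RNase L, and the IFIT proteins, which bind foreign RNA, supplied 7 of those calls among 10 genes. Oas2 was at 1.37, 1.68, 0.85 and 0.88 in the hepatocyte condition, against -6.50, -6.11, -4.95 and -6.79 in undifferentiated cells. Every hepatocyte-condition array lay above every undifferentiated array by more than 5 log2 units, a difference of 7.29 ± 0.76 (SE, limma adjusted p 4.62e-05). Ifit1 was at 1.55, -0.08, 1.51 and 1.15 in the hepatocyte condition and -4.21, -3.19, -2.94 and -5.49 in undifferentiated cells, also without overlap (4.99 ± 0.52, limma adjusted p 4.53e-05). Oasl2 (4.24), Oas1a (3.64), Oas3 (3.32) and Ifit3 (2.91) passed with adjusted p between 4.92e-05 and 0.000719 in limma. Oas1b passed with a difference of only 0.46 ± 0.13 (limma adjusted p 0.0265), which was 0.20 (adjusted p 0.629) when arrays were scaled to their median and 0.42 (adjusted p 0.0733) without undifferentiated replicate 3; its second probe gave 1.16. Ifit2 was the exception among the IFIT genes: it was at -1.03, -1.51, -0.67 and -1.02 in the hepatocyte condition and -1.18, -1.75, -1.01 and -1.10 in undifferentiated cells, overlapping throughout (0.20 ± 0.48, limma adjusted p 0.854). Oasl1 (0.66) and Oas1g (0.34) did not pass either; Oas1g, a near copy of Oas1a with much the same promoter, was not well above background on 2 of 4 arrays of the hepatocyte condition and 3 of 4 undifferentiated arrays, and the array's ability to separate the pair was not tested.

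Of the other effectors, 7 of 11 were higher. Rsad2, which encodes viperin, a radical enzyme that makes a chain-terminating nucleotide, was at -2.07, -2.84, -0.82 and -1.76 in the hepatocyte condition and at -6.57, -5.56, -7.53 and -9.74 in undifferentiated cells, the last not well above background. Its groups did not overlap, with a difference of 5.47 ± 0.75 (limma adjusted p 0.000343). Cmpk2, a mitochondrial nucleotide kinase that neighbours Rsad2 in the genome, was not well above background on any undifferentiated array and was at -2.69, -3.53, -1.69 and -2.32 in the hepatocyte condition, at least 29.1-fold higher (limma adjusted p 1.65e-06). Such a bound sets the group mean against the higher of the dimmest signal well above background on an array and the probe's own signal there. Ifi44 (5.76), the GTPase Mx2 (3.60), the apoptosis factor Xaf1 (3.33), the chaperone Rtp4 (2.85) and Ifitm3 (2.56), which blocks fusion of virus and cell membranes, also passed. The 4 that did not pass were Mx1 (2.23 ± 1.03, limma adjusted p 0.178), Samd9l (0.56), Ifi35 (0.53) and Bst2 (-0.20), which tethers budding virions. Mx1 was well above background on 3 of 4 arrays of the hepatocyte condition and on 1 of 4 undifferentiated arrays. Bst2 was already high in undifferentiated cells, at 3.28, 3.29, 3.04 and 2.66, against 2.76, 2.37, 3.22 and 3.10 in the hepatocyte condition.

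The guanylate-binding proteins Gbp2 and Gbp3, GTPases that coat the vacuoles of microbes, had the largest differences of the set. Gbp2 was at 4.94, 3.22, 5.02 and 4.74 in the hepatocyte condition, against -2.58, -3.16, -4.02 and -2.74 in undifferentiated cells (7.60 ± 0.42, limma adjusted p 1.57e-07). Gbp3 was at 2.16, 0.55, 1.87 and 1.98 in the hepatocyte condition, against -6.01, -5.97, -5.89 and -5.56 in undifferentiated cells (7.50 ± 0.35, limma adjusted p 2.15e-08). Neither gene's groups overlapped, and replicate 2 was the lowest of the hepatocyte condition for both. Of the immunity-related GTPases, which act on the same vacuoles, Igtp rose (3.02 ± 0.29, limma adjusted p 2.05e-05). Irgm1 was at 4.08, 2.67, 3.67 and 3.34 in the hepatocyte condition and 3.47, 3.06, 2.72 and 3.07 in undifferentiated cells, overlapping (0.36 ± 0.28, limma adjusted p 0.467).

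**Figure D2:**
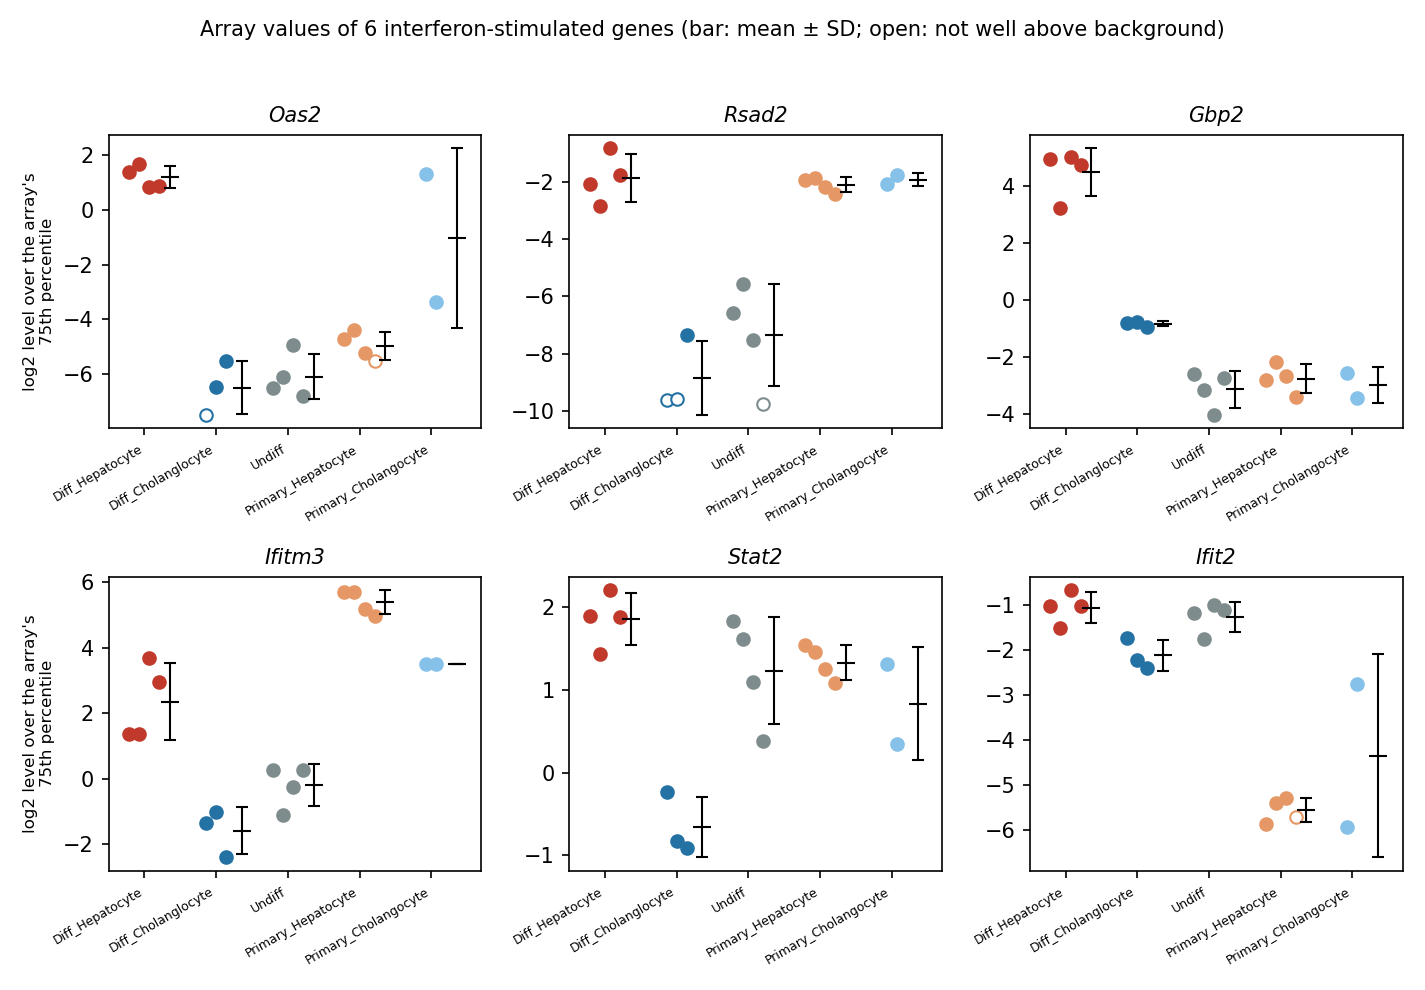
Level (log2 relative to the array's 75th percentile) of Oas2, Rsad2, Gbp2, Ifitm3, Stat2 and Ifit2 on each array, by group; dots are arrays, open dots are not well above background, bars are the group mean with its SD. Oas2, Rsad2 and Gbp2 were high on all 4 hepatocyte-condition arrays, Ifitm3 was highest in primary hepatocytes, Stat2 was lowest in the cholangiocyte condition, and Ifit2 was low in primary hepatocytes.

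Sensors of nucleic acid moved unequally. Zbp1, which binds Z-form nucleic acid, rose by 6.16 ± 0.42 (limma adjusted p 8.29e-07) and lay at -0.22 to 1.57 in the hepatocyte condition, against -6.43 to -4.93 in undifferentiated cells. Dhx58, which encodes the regulator LGP2, rose by 2.96 and Ifih1, which encodes the sensor MDA5, by 0.99 ± 0.24 (limma adjusted p 0.0116). The Ifih1 difference was 0.73 (adjusted p 0.097) under median scaling. Ddx58, which encodes RIG-I, and Eif2ak2, the kinase PKR that halts translation, did not pass, with 0.29 ± 0.28 (limma adjusted p 0.583) and 0.37 ± 0.22 (limma adjusted p 0.309); a second Ddx58 probe gave 1.20.

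Of 3 genes of the ISG15 system, the ubiquitin-like modifier Isg15 itself rose: it was at 3.25, 2.59, 3.51 and 3.24 in the hepatocyte condition, against -1.13, 0.15, 1.27 and -1.05 in undifferentiated cells, with no overlap (3.34 ± 0.52, limma adjusted p 0.000885). Usp18, the protease that removes it and restrains the receptor, overlapped between the groups (1.41 ± 0.83, limma adjusted p 0.308). The ligase Trim25 did not pass, at 3.75 to 3.84 in the hepatocyte condition and 3.28 to 4.14 in undifferentiated cells (0.03 ± 0.18, limma adjusted p 0.947).

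Among the transcription factors, Irf7, the amplifier of type I interferon, was at -0.85, -1.57, -0.56 and -0.43 in the hepatocyte condition and -4.38, -4.43, -4.41 and -5.88 in undifferentiated cells (3.92 ± 0.43, limma adjusted p 5.92e-05). Irf9 rose by 1.85 ± 0.21 (limma adjusted p 7.94e-05) and Irf1, a target of interferon gamma, by 1.06 ± 0.27 (limma adjusted p 0.0167), or 0.80 (adjusted p 0.0783) under median scaling and 0.90 (adjusted p 0.054) without undifferentiated replicate 3; a second Irf1 probe gave 0.46. Stat2 did not pass, with 1.44 to 2.21 in the hepatocyte condition and 0.38 to 1.84 in undifferentiated cells (0.62 ± 0.31, limma adjusted p 0.218). The ADP-ribosyltransferases Parp9 and Parp14 and Dtx3l, the ubiquitin ligase that pairs with Parp9, rose together by 1.81, 2.09 and 1.87, each without overlap (limma adjusted p 0.000468, 0.000578 and 0.000196).

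**Figure D3:**
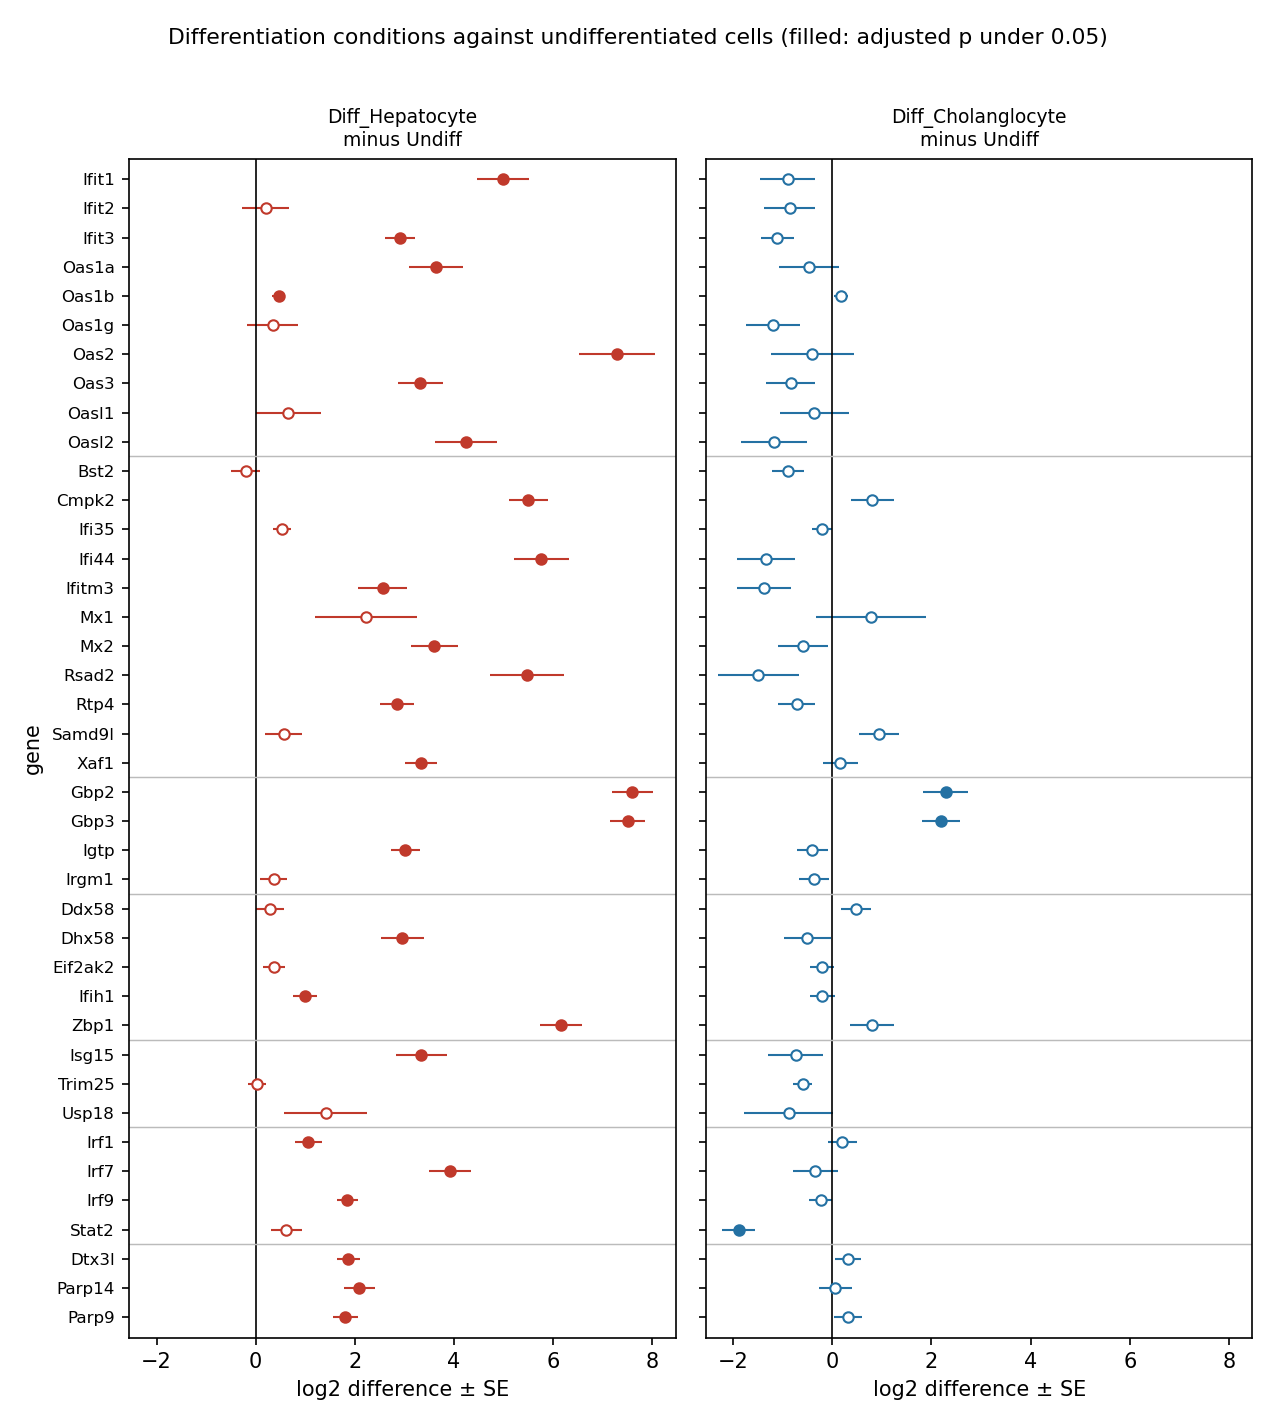
Difference in mean log2 level from undifferentiated cells for each of the 40 antiviral genes, for the hepatocyte condition and for the cholangiocyte condition, with SE; filled points have a limma adjusted p under 0.05. For the hepatocyte condition 27 points are filled, all above 0, and for the cholangiocyte condition 3 are filled, Gbp2 and Gbp3 above 0 and Stat2 below it.

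The rest of the pathway was read from lists made with earlier results of these data known. Of 18 interferon genes listed, 15 had a probe and 11 met the background filter; their mean level was -4.87 to -4.11 in the hepatocyte condition and -5.30 to -4.08 in undifferentiated cells. In limma 0 of the 11 passed in either direction, and 0 had an unadjusted p under 0.05 (median difference 0.29, range -0.03 to 0.64; Ifnb1, Ifng, Ifna4 and Ifne failed the filter). Of 6 receptor chains, Ifngr1 and Ifngr2, which form the receptor of interferon gamma, were each lower by a difference of -0.69 (limma adjusted p 0.0243 and 0.0334), while Ifnar1 (0.51) and Ifnar2 (0.46) did not pass. Of 9 signalling and feedback genes, 5 were higher and 0 lower, with Socs3 at 4.17 ± 0.39 and Socs1 at 2.88 ± 0.45 (limma adjusted p 1.65e-05 and 0.000893); SOCS proteins inhibit JAK kinases. Of 18 genes of nucleic acid sensing and its adaptors, 5 were higher and 1 lower, among them Samhd1 (1.43) and Trex1 (1.16), enzymes that degrade nucleotides and DNA, with Ikbke (-1.15) the lower one. Of 43 further interferon-stimulated genes, 25 were higher and 0 lower (median 1.49), led by Trim30a (6.50 ± 0.91), Gbp4 (6.14 ± 0.71) and Gvin1 (5.31 ± 0.55). Of all genes, 7.62% were called higher and 7.70% lower between these groups.

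Markers of cells that could accompany the cultures were read beside this result. Of 24 leukocyte and Kupffer cell markers, 2 were higher in the hepatocyte condition than in undifferentiated cells, Tyrobp (4.04) and Ptprc (2.63), and Cd68 was lower (-1.92). In limma 7.62% of all genes were called higher and 7.70% lower, so these counts lay near the share of all genes. At an unadjusted p under 0.05 in limma, 6 of the 24 were higher and 1 lower. The summed level of the 24, in units of the array's 75th percentile, was 17.2 to 27.1 in the hepatocyte condition and 15.9 to 22.0 in undifferentiated cells. Such a sum is set mostly by the brightest markers. Their mean log2 level was -5.3 to -4.57 in the hepatocyte condition and -5.97 to -4.77 in undifferentiated cells. On each hepatocyte-condition array 14 to 18 of the 24 were well above background, against 13 to 18 on each undifferentiated array. Clec4f, Lyz2, Timd4 and Laptm5 were not well above background on any hepatocyte-condition array. Ptprc, which encodes the leukocyte antigen CD45, was at -3.03, -4.02, -2.99 and -3.99 in the hepatocyte condition, against -6.16, -5.66, -6.58 and -6.13 in undifferentiated cells. Of 7 markers of plasmacytoid dendritic cells, the main makers of type I interferon, Irf8 alone was higher (3.12), with 7.62% of all genes called higher. Of 11 stellate cell and fibroblast markers, 2 were higher and 0 lower, with 7.62% and 7.70% of all genes called. They were the matrix proteoglycan Dcn (5.06 ± 0.88, limma adjusted p 0.00167) and the smooth muscle actin Acta2 (2.62 ± 0.74, limma adjusted p 0.0265). The summed level of the 11 markers was 0.315 to 3.19 in the hepatocyte condition and 0.108 to 0.198 in undifferentiated cells, without overlap. On each hepatocyte-condition array 5 to 8 of the 11 were well above background, against 4 to 7 on each undifferentiated array. Pdgfra and Lum were not well above background on any hepatocyte-condition array. The part of other cell types in the result was not tested. The difference was present within each slide that held both groups: the median over the 40 genes was 2.02, 2.74 and 2.16 on the 3 slides, with 35, 35 and 36 genes higher.

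**Figure D4:**
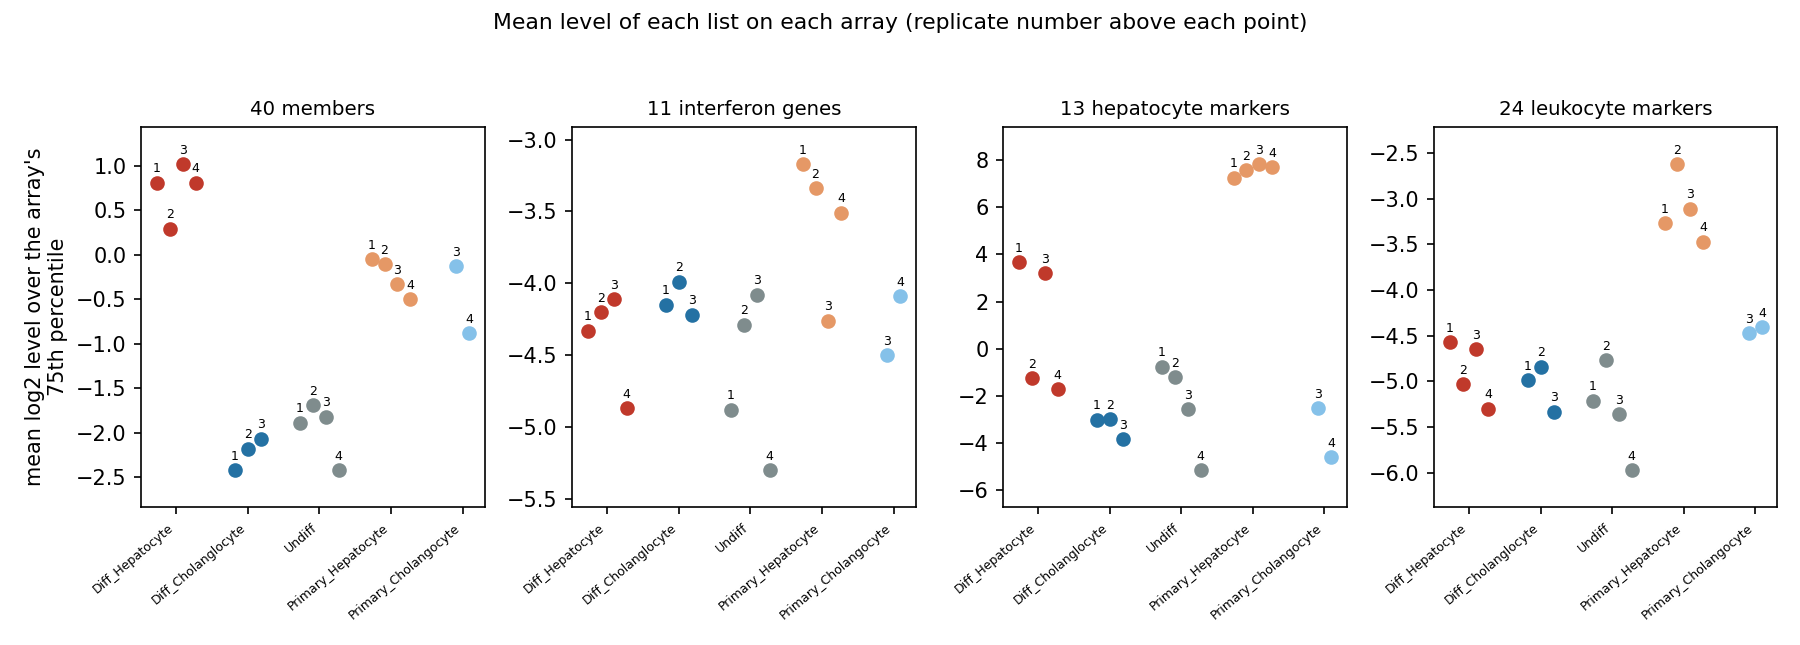
Mean log2 level on each array, by group, over the 40 antiviral genes, the 11 interferon genes that met the filter, 13 hepatocyte markers and 24 leukocyte markers; dots are arrays. The antiviral genes separate the hepatocyte condition from undifferentiated cells on every array, whereas the hepatocyte markers split the 4 hepatocyte-condition arrays into 3.67 and 3.20 against -1.26 and -1.72.

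Few genes of the set passed between the cholangiocyte condition and undifferentiated cells. Gbp2 and Gbp3 were higher and Stat2 lower, and 37 genes did not pass (3 were higher and 7 lower at an unadjusted p under 0.05); 0.785% of all genes were called higher and 0.597% lower. Gbp2 was at -0.80, -0.76 and -0.93 in the cholangiocyte condition, against -2.58, -3.16, -4.02 and -2.74 in undifferentiated cells (2.29 ± 0.45, limma adjusted p 0.0236). Gbp3 was at -3.38, -3.57 and -4.04 in the cholangiocyte condition, against -6.01 to -5.56 in undifferentiated cells (2.19 ± 0.38, limma adjusted p 0.0113). Stat2 was at -0.24, -0.83 and -0.91 in the cholangiocyte condition, against 1.84, 1.62, 1.10 and 0.38 in undifferentiated cells (-1.89 ± 0.34, limma adjusted p 0.0131). None of the 3 overlapped between groups. Under normexp Gbp3 was at 1.09 and did not pass (limma adjusted p 0.148). With the replicate number as a block, Gbp2 was at 2.25 and no longer passed (limma adjusted p 0.0708), while Gbp3 (2.16, adjusted p 0.0404) and Stat2 (-2.04, adjusted p 0.0136) did. Without replicate 2 of the cholangiocyte condition, 0 of the 40 passed, at 2.26 for Gbp2 (limma adjusted p 0.0964), 2.15 for Gbp3 (0.0582) and -1.81 for Stat2 (0.0669).

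The median difference over the set was -0.39, against 0.14 over all genes. It was -0.42 and -0.69 on the slides that held both groups. The largest difference below 0 after Stat2 was that of Rsad2 (-1.49 ± 0.81, limma adjusted p 0.466), which was well above background on 1 of 3 cholangiocyte-condition arrays. In 3 genes the cholangiocyte-condition range lay above and in 5 below that of undifferentiated cells, against 8.75% and 4.58% of all genes. Of the pathway lists, interferons, receptors, signalling genes and sensing genes had 0 calls in limma, with 1, 1, 0 and 5 at an unadjusted p under 0.05, and Cxcl10, a chemokine induced by interferon gamma, was the only one of 43 further interferon-stimulated genes called (2.99 ± 0.46, limma adjusted p 0.00596).

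The conditions were also compared with each other; this comparison shares its arrays with those above. Between the hepatocyte and the cholangiocyte condition 28 genes were higher in the hepatocyte condition and 0 lower, with 6.97% and 8.41% of all genes called, and the median difference was 2.84, against -0.13 over all genes. Without replicates 2 and 4 of the hepatocyte condition, 26 were higher. The ranges did not overlap in 33 genes, all higher in the hepatocyte condition, against 11.0% of all genes higher and 16.9% lower. Oas2 was at -7.49, -6.45 and -5.53 in the cholangiocyte condition (difference 7.69 ± 0.83, limma adjusted p 5.57e-05), and Ifi44 was at -0.55, -1.56, 0.22 and 0.23 in the hepatocyte condition and -7.69, -8.48 and -6.35 in the cholangiocyte condition, the first pair of them not well above background (7.10 ± 0.59, limma adjusted p 7.99e-06). Stat2, which did not pass between the hepatocyte condition and undifferentiated cells, passed here at 2.51 ± 0.34 (limma adjusted p 0.000277). Under normexp 7 of the 28 differences were smaller by over 1.5 times, Oas2 (4.80) and Ifi44 (3.61) among them. Trim25 (0.63, limma adjusted p 0.0431) and Ifi35 (0.73) were the smallest called, and neither passed without replicate 1 of the cholangiocyte condition (adjusted p 0.122 and 0.0874).

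Against primary hepatocytes the set divided by gene. In the hepatocyte condition 16 genes were higher and 9 lower than in primary hepatocytes, with 26.0% and 33.7% of all genes called, so calls in both directions were common beyond the set. The median was 0.44, against -0.33 over all genes. Without replicates 2 and 4 of the hepatocyte condition, 16 were higher and 5 lower. Higher genes included Gbp2, at -2.79, -2.17, -2.64 and -3.38 in primary hepatocytes (7.22 ± 0.42, limma adjusted p 3.89e-09), Oas2, at -4.70, -4.39, -5.23 and -5.53 (6.16 ± 0.76, limma adjusted p 9.21e-06), and Oasl2, at -5.20, -4.23, -4.99 and -6.95 (6.11 ± 0.62, limma adjusted p 1.22e-06). Oas3 was not well above background on any primary hepatocyte array and was at -2.79, -2.31, -1.75 and -1.76 in the hepatocyte condition, at least 15.2-fold higher (limma adjusted p 2.39e-07). Ifit2, which did not pass between the hepatocyte condition and undifferentiated cells, was at -5.86, -5.39, -5.29 and -5.70 in primary hepatocytes (4.50 ± 0.48, limma adjusted p 2.28e-06). Under normexp the differences of Oas3 (1.33), Oasl2 (3.67), Oas2 (4.03) and Ifit2 (2.18) were smaller by over 1.5 times and still passed in limma.

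The 9 lower genes included the membrane restriction factors Ifitm3 and Bst2 and the cytosolic RNA helicases. Ifitm3 was at 1.37, 1.38, 3.70 and 2.97 in the hepatocyte condition, against 5.70, 5.71, 5.19 and 4.98 in primary hepatocytes, without overlap (-3.04 ± 0.50, limma adjusted p 0.000136). Bst2 was at 2.37 to 3.22 in the hepatocyte condition and 4.33 to 5.06 in primary hepatocytes (-1.87 ± 0.29, limma adjusted p 7.73e-05). The 3 RNA helicases Dhx58 (-1.57), Ifih1 (-1.32) and Ddx58 (-1.17) were lower too, as were Oas1b (-1.46), Oasl1 (-1.87), Dtx3l (-0.62) and Trim25 (-0.51). A second Ddx58 probe gave only -0.39, and second probes of Ifih1, Oas1b and Dtx3l gave -1.11, -2.87 and -0.92. Dhx58 no longer passed without replicates 2 and 4 of the hepatocyte condition (-1.18, adjusted p 0.0785). Oasl1 no longer passed without primary hepatocyte replicate 1 (-1.66, adjusted p 0.0642), nor did Dtx3l (-0.58, adjusted p 0.0813) and Trim25 (-0.45, adjusted p 0.0691) without primary hepatocyte replicate 2. Trim25 was at -0.06 (adjusted p 0.796) under quantile normalization, which moved the median of all genes to -0.01. Rsad2 was at -1.95, -1.86, -2.19 and -2.44 in primary hepatocytes, inside the range of the hepatocyte condition (0.24 ± 0.75, limma adjusted p 0.798), and Irf7 differed by 0.00 ± 0.43 (limma adjusted p 0.994). Ranges did not overlap in 17 genes higher and 10 lower, against 25.5% and 30.8% of all genes.

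In the same comparison, receptors and feedback genes also differed, with Ifnlr1, the type III interferon receptor chain, at 7.75, Socs1 at 5.46 and Socs3 at 4.04 higher, and Ifnar2 at -1.82 lower in the hepatocyte condition. On the primary hepatocyte arrays, which had lower signal, 5 to 6 of the 6 receptor chains were well above background. Of 43 further interferon-stimulated genes, 19 were higher, such as Slfn2 (7.90), and 12 lower, such as Apol9b (-4.22), with 26.0% and 33.7% of all genes called. All 11 endothelial markers, all 4 red blood cell markers, 18 of 24 leukocyte markers and 4 of 11 stellate cell and fibroblast markers were lower in the hepatocyte condition than in primary hepatocytes. The last of these counts lies near the 33.7% of all genes called lower. The leukocyte markers Cd14 (7.55), S100a8 (2.70) and Ptprc (1.37) were higher. The summed leukocyte level was 17.2 to 27.1 in the hepatocyte condition and 15.7 to 21.7 in primary hepatocytes. The mean log2 level of the same markers was -5.3 to -4.57 in the hepatocyte condition and -3.47 to -2.62 in primary hepatocytes. The part of these cells in the result was not tested.

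The cholangiocyte condition was below primary cholangiocytes for most of the set. There 22 genes were lower and 4 higher, with 7.64% of all genes called lower and 11.9% higher, and the median difference was -1.39, against 0.17 over all genes. The ranges did not overlap in 25 genes lower and 4 higher, against 16.0% and 25.9% of all genes. Rsad2 was at -9.60, -9.58 and -7.34 in the cholangiocyte condition, against -2.08 and -1.77 in primary cholangiocytes (-6.91 ± 0.97, limma adjusted p 0.000241). It was well above background on 1 of the 3 cholangiocyte-condition arrays, and under normexp the difference was -2.48 (limma adjusted p 0.000169). Ifitm3 was at -1.35, -1.01 and -2.40 in the cholangiocyte condition and at 3.51 on both primary cholangiocyte arrays (-5.09 ± 0.65, limma adjusted p 0.000117). Oas1a was at -3.86, -2.19 and -1.65 in the cholangiocyte condition, against 3.52 and 2.43 in primary cholangiocytes (-5.54 ± 0.71, limma adjusted p 0.000126). Each of these stood clear of the other group. Under normexp 11 of the 26 differences were smaller by over 1.5 times or turned sign, and Dhx58 (-0.59), Gbp3 (-0.87), Mx2 (-1.04), Oas3 (-0.61) and Oas1g (0.21) among them did not pass.

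The 2 primary cholangiocyte arrays disagreed over several genes. Oas2 was at 1.30 on one and -3.35 on the other, with -7.49 to -5.53 in the cholangiocyte condition (-5.47 ± 0.99, limma adjusted p 0.00164). Without primary cholangiocyte replicate 3, which was the higher of the pair in the mean over the set, 14 of the 40 genes passed in place of 26, and with only these groups in the fit 9 passed. The genes higher in the cholangiocyte condition were Ifit2 (2.22), Gbp2 (2.16), Irgm1 (1.99) and Irf1 (1.46); Ifit2 was at 0.63 (adjusted p 0.327) without replicate 3 and Gbp2 at 1.71 (adjusted p 0.105) and Irf1 at 1.16 (adjusted p 0.0882) without replicate 4 of the primary cholangiocytes. The summed leukocyte marker level was 16.4 to 25.9 in the cholangiocyte condition and 38.6 and 45.2 in primary cholangiocytes. Of the 24 markers, 16 to 17 were well above background on each primary cholangiocyte array. On the cholangiocyte-condition arrays 15 to 16 were. Clec4f, Timd4, Tyrobp and S100a8 were not well above background on either primary cholangiocyte array. In the cholangiocyte condition 4 of the 24 markers were lower and 0 higher, with 7.64% and 11.9% of all genes called. The part of leukocytes in the result was not tested.

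**Figure D5:**
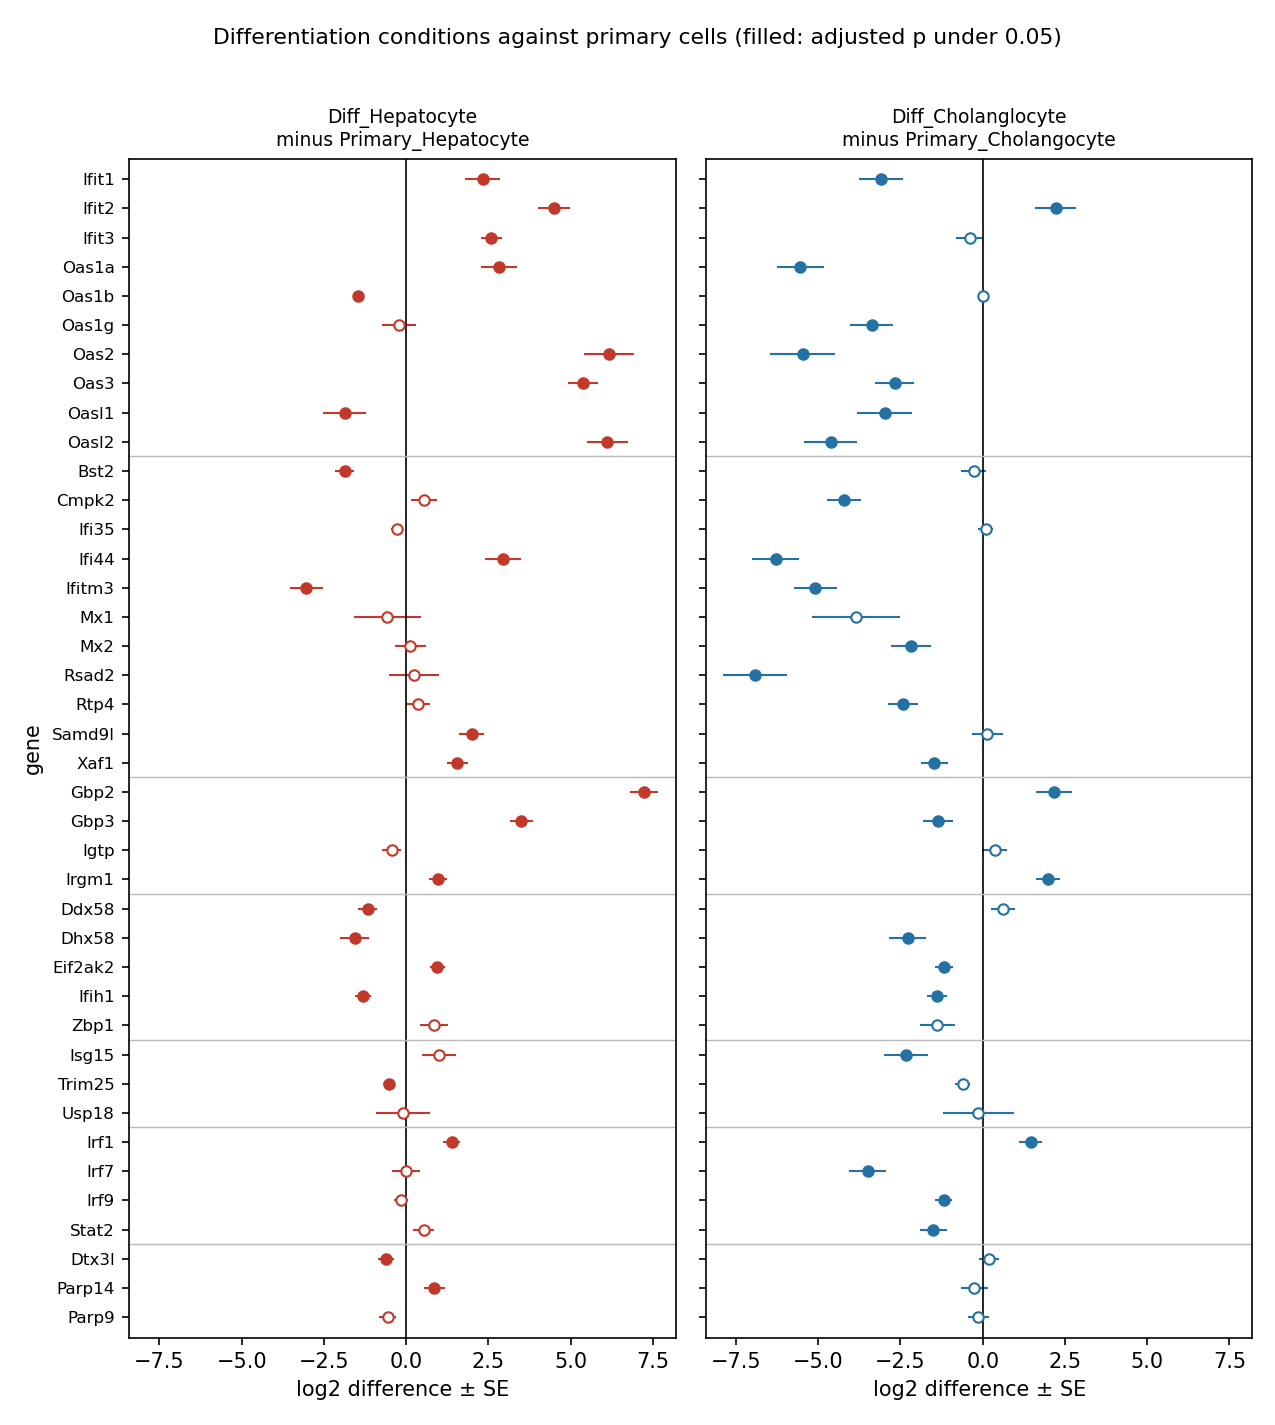
Difference in mean log2 level between each condition and the primary cells of its lineage for each of the 40 antiviral genes, with SE; filled points have a limma adjusted p under 0.05. The hepatocyte condition has 16 filled points above 0 and 9 below, and the cholangiocyte condition 4 above and 22 below.

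The difference between these differences was tested in the same model, as the hepatocyte condition minus primary hepatocytes, less the cholangiocyte condition minus primary cholangiocytes. It passed with a positive sign in 23 genes and a negative sign in 3, where 15.5% and 22.2% of all genes did, with a median of 2.18 against -0.44 over all genes. Oas2 (11.63 ± 1.25, limma adjusted p 6.64e-06) and Oasl2 (10.73 ± 1.01, limma adjusted p 1.91e-06) had the largest. Under normexp Oas2 was at 6.92 and Oasl2 at 6.87, and 11 of the 26 were smaller by over 1.5 times or turned sign. Without replicates 2 and 4 of the hepatocyte condition, 20 genes passed with a positive sign and 2 with a negative one. The 3 negative ones were Oas1b (-1.48), Bst2 (-1.60) and Ddx58 (-1.78).

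Between the primary cells 16 genes were higher and 8 lower in primary hepatocytes than in primary cholangiocytes, with 28.0% and 21.6% of all genes called. Calls in both directions were thus common beyond the set, and the count of lower genes lay near the share of all genes. The median difference was 0.76, against 0.35 over all genes, and ranges did not overlap in 19 genes higher and 9 lower, against 34.8% and 25.5% of all genes. Igtp was at 3.41, 3.35, 3.47 and 3.28 in primary hepatocytes, against -0.54 and -1.13 in primary cholangiocytes (4.21 ± 0.35, limma adjusted p 2.55e-07). Oasl2, at -5.20, -4.23, -4.99 and -6.95 in primary hepatocytes and 0.07 and -0.14 in primary cholangiocytes, ran the other way (-5.31 ± 0.76, limma adjusted p 4.4e-05), as did Oas1a (-4.25 ± 0.68, limma adjusted p 0.000123). Of the 10 OAS and IFIT genes 2 were higher and 5 lower in primary hepatocytes, while of 5 sensors, PKR counted among them, 4 were higher and Eif2ak2 was lower. Oas2 (-3.94, limma adjusted p 0.003) and Ifi44 (-2.14, limma adjusted p 0.0167) did not pass without primary cholangiocyte replicate 3, at -1.62 (adjusted p 0.0898) and -1.69 (adjusted p 0.142). Under normexp Oasl2 was at -2.93, Oas2 at -2.12 and Ifi44 at -1.32, and Oas3, at -3.90 here, was at -0.16 (adjusted p 0.584). Endothelial markers were higher in primary hepatocytes for 10 of 11 measured, and 10 of 24 leukocyte markers were higher and 3 lower; their part in the result was not tested.

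Over the 17 arrays the 40 genes followed a shared profile to unequal degrees. The correlation of a gene with the mean of the other 39, a description over arrays that share their groups, was 0.973 for Ifit1 and Xaf1, 0.954 for Rtp4 and 0.943 for Irf7. It was 0.481 for Mx1, 0.474 for Oas1g, 0.414 for Oas1b, 0.29 for Bst2, 0.273 for Irf1, 0.241 for Eif2ak2 and 0.197 for Ddx58. The lowest were 0.0651 for Irgm1, -0.154 for Samd9l and -0.235 for Ifit2. Samd9l was at 0.84 to 1.64 in undifferentiated cells and 2.08 to 2.28 in the cholangiocyte condition, and it was lowest in primary hepatocytes, at -0.51 to 0.51. Outside all lists, the named genes with the most similar profile to the mean of the set, among genes well above background in the hepatocyte condition, were Il13ra1 (r = 0.947), Znfx1 (0.941), Sema6b (0.939), Nrbp2 (0.938) and Tff3 (0.93). Tff3 averaged 2.58 in the hepatocyte condition and -7.80 in undifferentiated cells.

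The presence of the ISRE letters did not divide the set cleanly. Between the hepatocyte condition and undifferentiated cells 11 of 17 genes with a match were higher (median 2.91), and 8 of 13 without one were (median 1.85), with 7.62% of all genes called higher. Ifi44, Cmpk2, Irf7, Oasl2 and Xaf1 were among the genes with large differences and no match in the window, which says only that these letters are absent there. For the GAS letters, 4 of 8 genes with a match (median 0.80) and 15 of 22 without one (median 3.12) were higher. The cholangiocyte condition's 3 calls against undifferentiated cells, Gbp2, Gbp3 and Stat2, all had the ISRE letters in the window, among 17 genes of 30 that did.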

How the data were processed

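RNA of 17 samples, 1 array each, was amplified with WT-Ovation Pico and labelled with Cy3, per the labels. The deposited intensity of a spot is the processed Cy3 signal of Agilent Feature Extraction 10.5.1.1, per the file headers (9.53 per the submitters' processing notes), and arrays were not scaled to each other there. A further table deposited by the authors holds 2 scores per comparison, per its column names: a signed fold change and a false discovery rate in percent. How it was normalized is not given in the sources used here, and it served as an alternative only.

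The value of a probe was log2 intensity minus log2 of the array's 75th percentile. Outlier spots were left out and spots of a probe averaged; no probe was saturated. Probes well above background on at least 2 arrays were kept, which left 32305 of 39429, and the brightest stood for its gene (25977 genes). Probes were named through RefSeq tables of GRCm38.p6: 26412 by accession, 3854 by current symbol, 735 by older symbol and 8428 by the files' name. The 5 group means were fitted to all 17 arrays with limma 3.58.1 in R 4.3.3, two-sided, with Benjamini-Hochberg adjustment within each comparison and a threshold of 0.05. Figures were drawn with matplotlib 3.10.9. The number of arrays limits the precision.

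The 40 genes and all lists were chosen with earlier results of these data known. Named genes were all 40; from each pathway list up to 4 called per direction and 3 not called; any marker; and the 10 genes outside the lists closest to the set's mean. Replicate numbers come from the hybridisation number in the titles. Same-numbered arrays deviated together between the cholangiocyte condition and undifferentiated cells (correlations 0.385, 0.281 and 0.318). Between the hepatocyte condition and undifferentiated cells replicate 4 did (0.519), but replicates 1 to 3 did not (-0.0308, -0.0705 and -0.148). Slides were numbered from the files, and each slide had 1 scan time. Alternatives were the background correction, scaling, filter, probe rule, slide or replicate block, groups fitted, arrays left out and the authors' table. Leaving out replicates 2 and 4 of the hepatocyte condition was chosen after seeing the data, as was leaving out 1 array for the difference of differences. A gene of the signalling list is not reported here.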

Additional observations from a re-analysis of the deposited data

Results flagged for a closer look

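The culture against primary difference differed between lineages for 26 of the 40 genes by the limma contrast described above (difference of differences, log2). It was 11.63 for Oas2, 10.73 for Oasl2, 9.23 for Ifi44, 8.37 for Oas1a, 8.06 for Oas3 and 7.15 for Rsad2. It was 5.40 for Ifit1, 5.06 for Gbp2, 4.87 for Gbp3, 4.76 for Cmpk2, 3.51 for Irf7, 3.32 for Isg15 and 3.15 for Oas1g, which was not well above background on any cholangiocyte-condition or primary hepatocyte array and was at -1.13 under normexp. It was 3.02 for Xaf1, 3.0 for Ifit3, 2.78 for Rtp4, 2.28 for both Ifit2 and Mx2, 2.23 for Zbp1, 2.12 for Eif2ak2, 2.02 for Stat2, 1.84 for Samd9l and 1.04 for Irf9. It was negative for Oas1b (-1.48), Bst2 (-1.60) and Ddx58 (-1.78). Each value rests on 2 primary cholangiocyte arrays. Without primary cholangiocyte replicate 3, Zbp1 (1.95), Mx2 (1.23), Samd9l (0.88), Irf9 (0.55), Bst2 (-0.88) and Ddx58 (-1.19) did not pass in limma (adjusted p 0.0625 to 0.224), and Ifit2 did not without replicate 4 (0.69, adjusted p 0.252). With the replicate block Ifit2 (2.01), Samd9l (1.89) and Irf9 (1.09) did not pass (limma adjusted p 0.0522 to 0.0963). Under normexp Ifit2 (0.58) and Mx2 (1.09) did not, with the slide block Mx2 (1.80) and Irf9 (adjusted p 0.0653) did not, and under quantile normalization Bst2 (-1.06) did not. Without replicates 2 and 4 of the hepatocyte condition Ifit2 (2.49), Samd9l (1.57), Irf9 (0.83) and Bst2 (-1.47) did not pass, and Ifit2 and Irf9 did not with only the groups compared in the fit. Leaving out single arrays of the conditions or of primary hepatocytes also ended the calls of Ifit2, Irf9, Mx2 and Samd9l in some refits (limma adjusted p 0.0509 to 0.0715).

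Of 120 groups of 4 arrays, 5 held an array far from the other 3, where chance alone puts about 1 group in 20. Gbp2 was at 3.22 on replicate 2 of the hepatocyte condition, against 4.74 to 5.02 on the others. Eif2ak2 was at -0.80 on replicate 3 of the hepatocyte condition, against -0.16 to -0.10. Irf7 was at -5.88 on undifferentiated replicate 4, against -4.43 to -4.38, and Dhx58 at -4.91 on undifferentiated replicate 2, against -5.79 to -5.68. Ddx58 was at 1.55 on primary hepatocyte replicate 3, against 1.75 to 1.77.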

How the results depend on the processing

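The number of the 40 genes that passed stayed within 1.5 times its value in every alternative run for the hepatocyte condition against undifferentiated cells (27; 25 to 27 with 1 array left out, 24 to 28 otherwise), against the cholangiocyte condition (28; 26 to 28 and 26 to 29) and against primary hepatocytes (25; 22 to 24 and 21 to 30), for primary hepatocytes against primary cholangiocytes (24; 18 to 24 and 21 to 25) and for the difference of differences (26; 22 to 27 and 22 to 26). It did not for the cholangiocyte condition against primary cholangiocytes (26), with 14 to 24 when 1 array was left out (14 without primary cholangiocyte replicate 3), 9 with only these groups fitted and 12 in the authors' deposited table. Nor did it against undifferentiated cells (3), with 0 to 3 when 1 array was left out, 1 with only these groups fitted and 0 in the authors' deposited table. Over the refits, 24 of 27, 25 of 28 and 19 of 25 calls of the hepatocyte condition held throughout, against 0 of 3 and 7 of 26 of the cholangiocyte condition and 14 of 24 between primary cells. Oas1g turned sign under normexp background correction, at 0.21 for the cholangiocyte condition against primary cholangiocytes, 0.98 for primary hepatocytes against primary cholangiocytes and -1.13 for the difference of differences; its dim probe was mostly not well above background, and the cause was not tested. With the replicate block, the counts were 27, 28 and 24 for the hepatocyte condition against undifferentiated cells, the cholangiocyte condition and primary hepatocytes, 2 and 26 for the cholangiocyte condition against undifferentiated cells and primary cholangiocytes, 23 between primary cells and 23 for the difference of differences. Between primary cells the median of all genes was 0.00 under quantile normalization and 0.87 under normexp, in place of 0.35. Under normexp the median of the 40 genes for the hepatocyte condition against undifferentiated cells was 1.83 in place of 2.39, and no called difference of the 7 comparisons was larger by over 1.5 times.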
